A study of Homo sapiens with 9 samples.

Results

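The genes of the AP-1 family were followed across 9 RNA-seq libraries of 293T cells, a human embryonic kidney line that carries the SV40 large T antigen. They are 10 of the 57163 genes of the deposited count table and were taken by name, with earlier results of these data known. The set holds the JUN family (JUN, JUNB and JUND), the FOS family (FOS, FOSB, FOSL1 and FOSL2) and 3 related basic leucine zipper (bZIP) genes (ATF3, BATF3 and MAFF). Each was found through its Ensembl gene ID in GENCODE v44lift37, and all 10 were detected in every library.

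CLB_TFs are TFs that prefer to bind conserved lncRNA genes, and the study asked whether they alter conserved lncRNAs more than non-conserved ones when overexpressed, with other TFs as controls. RNA was collected 48 h after transfection of 293T cells with a plasmid of the type pLV[Exp]-EGFP-EF1A, in which the EF1A promoter drives the human open reading frame of 1 TF. NRF1, E2F4, EGR1 and ZBTB7A served as CLB_TFs, and HOXA11, RORA, TFCP2 and NKX2-8 as control TFs. The control cells are labelled blank and, by the methods, received an empty plasmid. No deletion of a gene and no selection of cells for uptake of the plasmid is described for any group, so a level is a mean over cells with and without it. Fewer cells with an RNA and less RNA per cell cannot be told apart in such bulk libraries. Each condition has 1 library, so no ratio of a TF library to the control has a replicate check.

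AP-1 is a dimer of bZIP proteins. JUN proteins pair with one another or with FOS proteins, whereas FOS proteins need a JUN partner to bind DNA. The dimers read the TPA response element (TRE) and, with ATF partners, the cAMP response element (CRE). FOS, FOSB, JUN and JUNB are immediate early genes: growth factors, serum and stress switch them on through kinases of the MAP kinase pathways and the serum response factor, without new protein synthesis. ATF3 and BATF3 share the bZIP fold and pair with JUN proteins, and MAFF is a small MAF protein, which has no activation domain of its own.

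Totals were 14177970 to 18915400 counts per library, and TMM factors were 0.972 to 1.08. Levels are given as CPM (counts scaled to a common library size) after TMM scaling, and as RPKM, which is CPM per kilobase of exon, where genes are compared with one another. Each inserted TF stood at 2562 to 15141 CPM in its own library, which includes RNA from the plasmid. The control library stands apart, since it held 533 CPM of TFCP2 against 36.6 to 45.9 CPM in the 7 libraries of the other TFs. Smaller excesses of another TF were seen in the HOXA11 library (65.2 CPM of RORA, 10.6 to 16.5 in the others without that insert), the ZBTB7A library (131.6 CPM of HOXA11, 48.2 to 67.5 in the others) and the E2F4 library (80.4 CPM of ZBTB7A, 30.4 to 41.2 in the others). The NRF1 and EGR1 libraries had 26166 and 26296 genes with a count, against 23344 to 24593 in the other 7. The part of these differences in the results below was not tested. Because the control library stands apart, JUNB, FOSL2, FOSB, FOSL1, FOS, BATF3 and MAFF were also set against the other 7 TF libraries pooled. For JUN, JUND, ATF3 and the genes outside the AP-1 set, the ratios below are to the control library alone. Those ratios therefore carry any peculiarity of the control library.

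All 10 markers of 293 cells were measured, with a summed level of 1861 to 2410 CPM. Of 12 leukocyte markers 1 had a mean of at least 1 CPM, and PTPRC, which marks all leukocytes, had 0 to 1 counts. Of 10 fibroblast markers 3 were measured, with a summed level of 28.6 to 45.3 CPM over the list.

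The promoters of the genes were read from GRCh37 as the 500 bases before the canonical GENCODE start and searched on both strands for short motifs. For several genes the deposited gene reaches upstream of that start. It covers all 500 window bases for ATF3 and MAFF, 410 for FOSL2, 280 for JUN, 185 for FOSL1 and 145 for BATF3. Counts of these genes can therefore include transcripts with another start. The stretches below are shown because JUNB had the largest change of the JUN family, and FOS carries the motif by which the family is known to respond to serum. Capitals mark a TATA box in JUNB and a CArG box, the site of the serum response factor, in FOS, and no annotated exon lies within the stretches. The JUNB stretch is chr19:12902000-12902299 on the plus strand, -300 to -1 from the start. The FOS stretch is chr14:75745131-75745430 on the plus strand, -400 to -101.
JUNB: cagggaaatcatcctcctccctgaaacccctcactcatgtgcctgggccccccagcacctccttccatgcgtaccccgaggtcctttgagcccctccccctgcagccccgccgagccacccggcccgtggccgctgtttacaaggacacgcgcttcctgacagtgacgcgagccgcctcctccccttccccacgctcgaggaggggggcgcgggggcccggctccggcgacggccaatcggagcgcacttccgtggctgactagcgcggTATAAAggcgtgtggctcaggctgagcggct
FOS: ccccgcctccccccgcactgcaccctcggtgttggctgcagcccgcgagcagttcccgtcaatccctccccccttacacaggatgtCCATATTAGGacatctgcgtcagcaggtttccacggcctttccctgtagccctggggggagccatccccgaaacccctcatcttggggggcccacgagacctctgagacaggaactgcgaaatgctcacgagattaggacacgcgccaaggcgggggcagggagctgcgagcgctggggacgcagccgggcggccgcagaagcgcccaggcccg

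The full CRE, TGACGTCA, was present in 3 of the 10 genes, among them MAFF, and in 2.89% of 19894 promoters of protein-coding genes of the same length. Its first 5 letters, TGACG, which every full CRE also holds, occurred in 9 of 10 genes, all but BATF3, and in 36.4% of promoters. A CArG box was present in 2 of 10 genes, against 2.4% of promoters, and the match in FOS ended 305 bases before the start. The EGR site, GCGNGGGCG, was found in 2 of 10 genes and in 15.4% of promoters. JUNB held none in this window. TATAAA was present in 5 of 10 genes against 18.0% of promoters. Its match lay 26 to 28 bases before the start in JUNB, FOS and ATF3, and 326 bases before it in MAFF. The TRE was searched as TGANTCA, with any middle base, which is looser than the TRE with C or G there. TGANTCA was in 0 of 10 windows and in 9.68% of promoters, a share that includes the looser matches. The palindromic NRF1 consensus site (1.74% of promoters) and the E2F sites TTTCCCGC (3.05%) and TTTGGCGC (1.14%) were also in 0 of 10. The ETS core GGAAG, present in 86.4% of promoters, was in 8 of 10. The windows of the 10 genes held 60.0% to 77.2% G and C, against a median of 58.4% over all promoters.

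**Figure D1:**
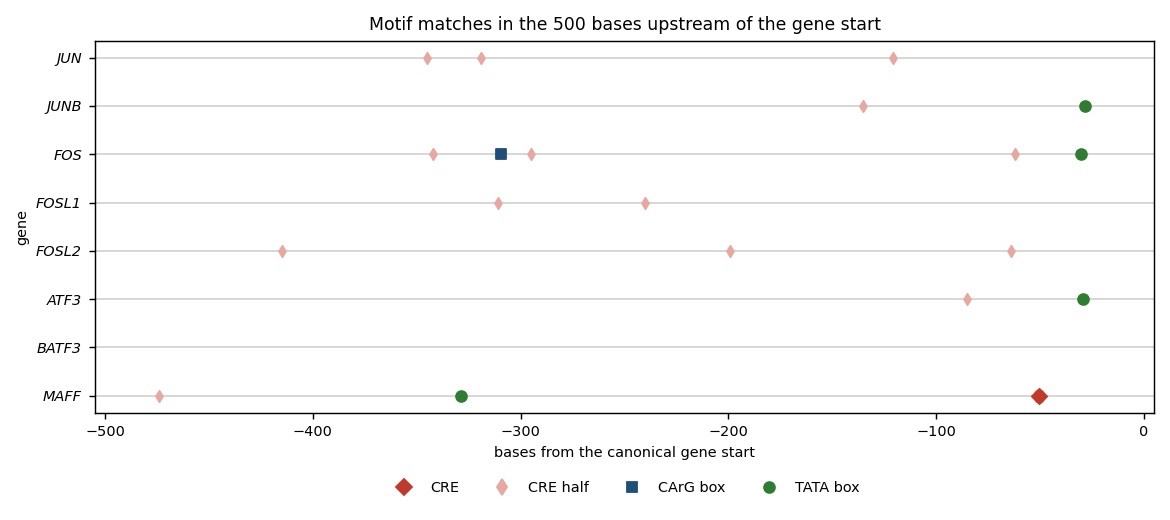
Motif matches in the promoters of 8 of the genes, 1 line per gene, by distance in bases from the canonical gene start (horizontal axis). MAFF holds a full CRE and FOS a CArG box, TATA boxes lie close to the start in JUNB, FOS and ATF3, and the pale marks are the short TGACG matches.

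Per length, JUN led the family in every library, with 213 to 316 RPKM. JUND followed with 59.8 to 87.2 RPKM and ATF3 with 41.7 to 62.9 RPKM. The ranges of JUND and ATF3 over the 9 libraries overlapped. JUNB held 26.4 to 33.7 RPKM in 8 libraries and 96.9 RPKM in the EGR1 library. The FOS family stood far lower, led by FOS at 5.30 to 9.77 RPKM and FOSL2 at 2.23 to 7.19 RPKM. FOSB had 0.806 to 2.11 RPKM and FOSL1 0.519 to 2.39 RPKM, 2 ranges that overlapped almost fully. BATF3 had 3.59 to 4.79 RPKM and MAFF 1.55 to 2.12 RPKM. The JUN family therefore made up 82.5% to 85.7% of the summed RPKM of the 10 genes and the FOS family 2.27% to 3.85%.

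A gene was taken to rise when it reached at least 1 CPM and at least 2 times its control level. The NRF1 library had 2 such genes among the 10, where 8.72% of 14894 genes rose so far. In the E2F4 library 1 rose against 3.95% of genes, in the EGR1 library 1 against 2.76%, and in the ZBTB7A library 1 against 2.15%. Among the control TFs, 2 rose in the HOXA11 library against 1.39% of genes, 1 in the RORA library against 0.707%, 1 in the TFCP2 library against 0.79% and 1 in the NKX2-8 library against 3.12%. None of the 10 fell by that measure in any TF library. Of all genes, 0.349% fell in the NRF1, 0.437% in the E2F4, 0.351% in the EGR1, 0.566% in the ZBTB7A, 0.488% in the HOXA11, 0.579% in the RORA, 0.306% in the TFCP2 and 1.19% in the NKX2-8 library. These 10 rises fell on 4 genes, namely JUNB, FOSL2, FOSB (2 libraries) and FOSL1 (6 libraries). Between the highest and the lowest of the 9 libraries these 4 of 10 genes differed at least 2-fold, against 15.9% of 13983 genes with a mean of at least 1 CPM. With the minimum set to 5 CPM, which leaves out FOSL1, 3 of 9 did, against 5.09% of genes. Of the 80 ratios to the control library, 40 had a 95% interval that left out 1, but the intervals cover counting error only.

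**Figure D2:**
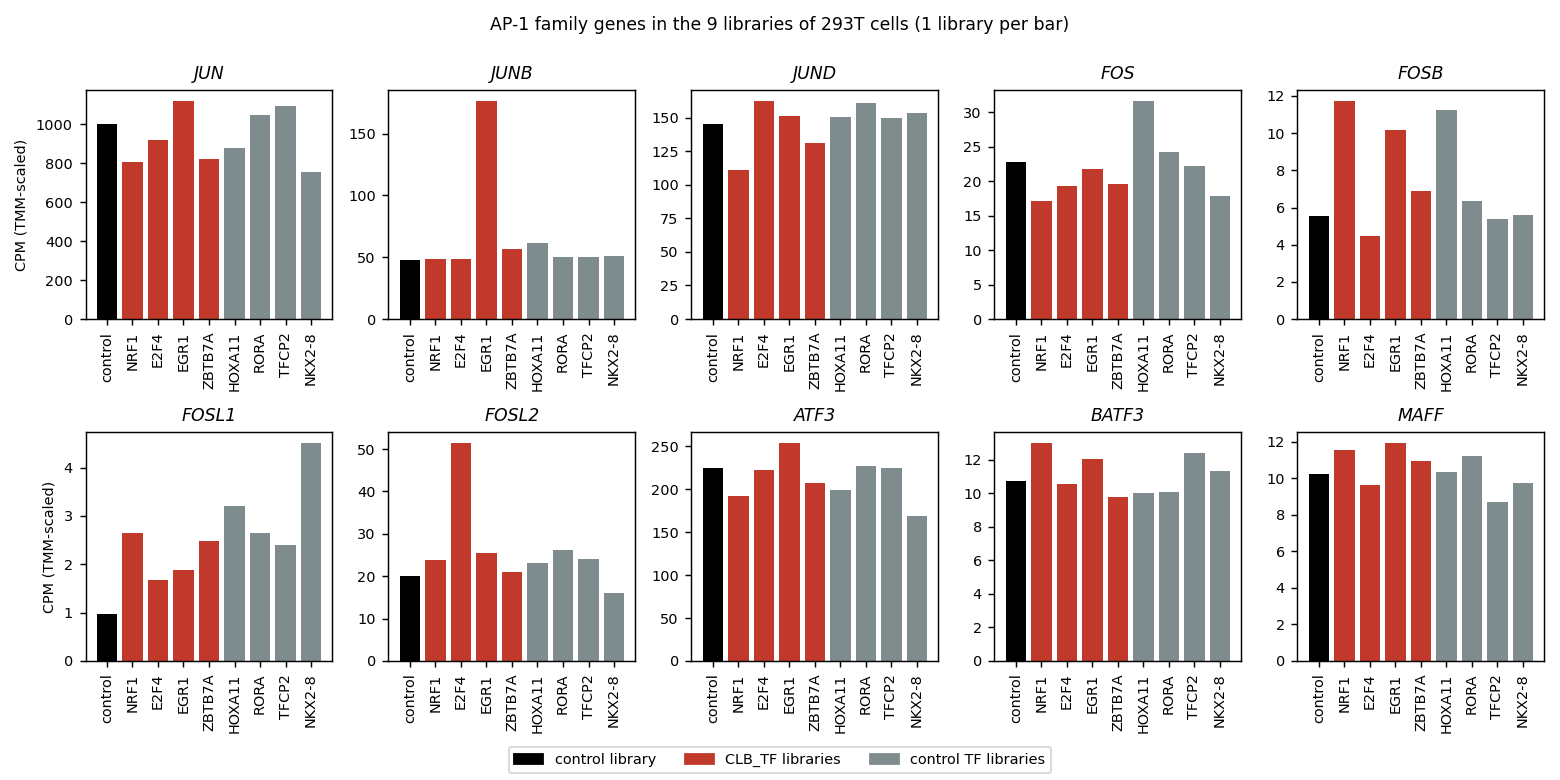
Level of each AP-1 family gene in CPM (vertical axes, each starting at 0) in the 9 libraries, 1 bar per library, coloured by class of TF. JUNB stands out in the EGR1 library at 176 CPM and FOSL2 in the E2F4 library at 51.4 CPM, whereas BATF3 and MAFF stay within 1.33-fold and 1.37-fold from the lowest to the highest library.

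JUNB, a JUN protein that transactivates weakly and can restrain JUN, was high in 1 library. Reads of JUNB numbered 2823 with EGR1 and 884 in the control. In CPM it stood at 176 in the EGR1 library, 48.1 in the control, 48.5 in the NRF1, 48.1 in the E2F4, 56.8 in the ZBTB7A, 61.4 in the HOXA11, 50.3 in the RORA, 50.4 in the TFCP2 and 51.1 in the NKX2-8 library. The EGR1 library thus lay above the range of the other 8. Its ratio to the control library was 3.67 (95% interval 3.40 to 3.96), and to the other 7 TF libraries pooled 3.37 (3.22 to 3.53). JUNB is a gene of 1 exon on chromosome 19 (12902310 to 12904129, plus strand). It shares 259 exon bases with HOOK2 on the opposite strand, and whether the counting used strand is not stated in the sources. HOOK2 itself had 335 counts with EGR1 and 361 in the control, within a range of 247 to 510. The HOXA11 library had the second highest JUNB level, at 1.28 times the control (1.17 to 1.40).

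JUN, the founding member and the strongest activator of the family, had 11379 to 19133 counts. Its levels were 1004 CPM in the control, 807 in the NRF1, 922 in the E2F4, 1120.0 in the EGR1, 822 in the ZBTB7A, 879 in the HOXA11, 1050.4 in the RORA, 1095 in the TFCP2 and 755 in the NKX2-8 library. Both classes of TF lay on both sides of the control. The lowest ratio was 0.752 (0.734 to 0.770) in the NKX2-8 library and the highest 1.12 (1.09 to 1.14) in the EGR1 library. JUN lies on chromosome 1 (59246460 to 59249999, minus strand) and has 1 exon.

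JUND, which is present in most resting cells and slows proliferation, varied as little. It had 145 CPM in the control, 111 in the NRF1, 162.5 in the E2F4, 151 in the EGR1, 131 in the ZBTB7A, 151 in the HOXA11, 161 in the RORA, 149.9 in the TFCP2 and 154 in the NKX2-8 library. The NRF1 library was the lowest, at 0.766 times the control (0.721 to 0.814), and the ZBTB7A library came next at 0.902 (0.850 to 0.957). The other 6 lay between 1.03 and 1.12 times the control. JUND lies on chromosome 19 (18390570 to 18392432, minus strand).

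FOSL2, also called FRA-2, a FOS protein without the strong activation domain of FOS, was high in the E2F4 library. Its levels were 51.4 CPM there against 20.1 in the control, 23.9 in the NRF1, 25.4 in the EGR1, 21.0 in the ZBTB7A, 23.1 in the HOXA11, 26.2 in the RORA, 24.1 in the TFCP2 and 15.9 in the NKX2-8 library. The E2F4 library lay above all other 8 and the NKX2-8 library below them. FOSL2 had 919 counts in the E2F4 library and 370 in the control, a ratio of 2.56 (2.26 to 2.89). Against the other 7 TF libraries pooled the ratio was 2.25 (2.08 to 2.42). The NKX2-8 library had 0.792 times the control level (0.670 to 0.934). FOSL2 lies on chromosome 2 (28615315 to 28640179, plus strand) and has 4 exons.

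FOSB, an immediate early gene with a stable short isoform in neurons, split the libraries into a higher and a lower set. The control had 102 counts, the NRF1 library 186, the HOXA11 library 189 and the EGR1 library 163. In CPM these 3 stood at 11.7, 11.2 and 10.2. The other 6 had 5.55 in the control, 4.48 in the E2F4, 6.91 in the ZBTB7A, 6.34 in the RORA, 5.38 in the TFCP2 and 5.57 in the NKX2-8 library. The higher set held 2 CLB_TFs and 1 control TF, and included both libraries with the most detected genes, a difference whose part in this was not tested. The ratio to the control was 2.11 (1.65 to 2.72) in the NRF1 library, 2.03 (1.58 to 2.6) in the HOXA11 library and 1.84 (1.42 to 2.37) in the EGR1 library, which did not reach 2-fold. Against the other 7 TF libraries pooled, the ratios were 1.64 (1.39 to 1.93), 1.57 (1.33 to 1.84) and 1.39 (1.16 to 1.64). FOSB lies on chromosome 19 (45971253 to 45978437, plus strand).

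FOSL1, or FRA-1, a FOS protein best known from invasive tumour cells, had the fewest counts of the 10 genes in every library. Per length its range overlapped that of FOSB. The control library had 18 counts, and the TF libraries had 42 with NRF1, 30 with E2F4, 30 with EGR1, 36 with ZBTB7A, 54 with HOXA11, 44 with RORA, 42 with TFCP2 and 68 with NKX2-8. The control library was the lowest of the 9, at 0.979 CPM against 1.68 to 4.51 CPM. Its level decided the 6 rises, which ranged from 2.46 (1.38 to 4.53) in the TFCP2 library to 4.61 (2.71 to 8.24) in the NKX2-8 library. Set against the other 7 TF libraries pooled, the NKX2-8 library was the only one above 1 beyond counting error, at 1.87 (1.41 to 2.44). The E2F4 library lay below, at 0.597 (0.396 to 0.869), and so did the EGR1 library, at 0.676 (0.449 to 0.985). No TF library reached 2-fold by that measure. The control library was the lowest of the 9 for 2 of the 10 genes, FOSL1 and, within counting error of the E2F4 and NRF1 libraries, JUNB, against 7.22% of genes with a mean of at least 1 CPM. FOSL1 lies on chromosome 11 (65659520 to 65668044, minus strand).

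FOS, the classic partner of JUN in the AP-1 dimer, was highest in the HOXA11 library. It had 22.7 CPM in the control, 17.2 in the NRF1, 19.3 in the E2F4, 21.7 in the EGR1, 19.6 in the ZBTB7A, 31.6 in the HOXA11, 24.3 in the RORA, 22.3 in the TFCP2 and 17.8 in the NKX2-8 library. The HOXA11 library lay above the other 8, with 532 counts against 418 in the control. Its ratio was 1.39 to the control (1.22 to 1.59) and 1.55 to the other 7 TF libraries (1.41 to 1.71). The lowest ratios to the control were 0.755 (0.645 to 0.881) in the NRF1 and 0.785 (0.671 to 0.918) in the NKX2-8 library. FOS and FOSB were both high in the HOXA11 library, but in the NRF1 library FOSB was at its highest level and FOS at its lowest. FOS lies on chromosome 14 (75745477 to 75748933, plus strand).

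**Figure D3:**
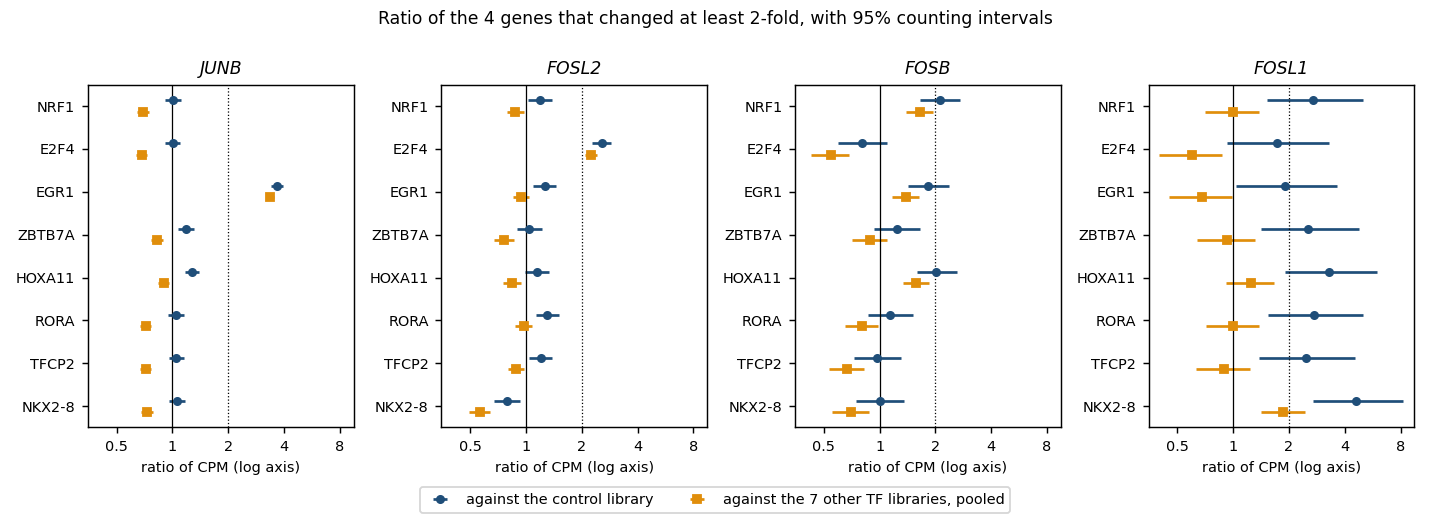
Ratio of CPM (horizontal log axes) for the 4 genes that rose at least 2-fold, 1 row per TF library, with 95% counting intervals. Circles are ratios to the control library and squares ratios to the 7 other TF libraries pooled; the JUNB rise in the EGR1 library (3.67 and 3.37) and the FOSL2 rise in the E2F4 library (2.56 and 2.25) pass the dotted 2-fold line by both references, and the FOSB and FOSL1 rises by the first alone.

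ATF3, a stress-induced bZIP repressor and a target of ATF4, was the second most counted gene of the set, with 2541 to 4133 counts. It had 225 CPM in the control, 193 in the NRF1, 223 in the E2F4, 254 in the EGR1, 207 in the ZBTB7A, 199 in the HOXA11, 227 in the RORA, 224 in the TFCP2 and 169 in the NKX2-8 library. As for JUN, the EGR1 library was the highest and the NKX2-8 library the lowest, with ratios of 1.13 (1.08 to 1.18) and 0.750 (0.714 to 0.789) to the control. ATF3 lies on chromosome 1 (212738676 to 212794119, plus strand) and shares 317 exon bases with an antisense lncRNA of the study's catalogue, which had 0 to 3 counts.

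BATF3, known for its part in the development of dendritic cells, had 141 to 216 counts, or 9.74 to 13 CPM. MAFF, which pairs with NRF2 and with other MAF proteins, had 147 to 191 counts, or 8.70 to 11.9 CPM. Their ratios to the control ran from 0.910 to 1.21 and from 0.851 to 1.17. In all 8 TF libraries the interval of the ratio to the control included 1 for both genes, so no difference from the control was detectable at this depth. Against the other 7 TF libraries pooled, BATF3 stood at 1.19 (1.02 to 1.38) in the NRF1 library and MAFF at 0.809 (0.679 to 0.959) in the TFCP2 library, and the other intervals included 1. BATF3 lies on chromosome 1 (212859760 to 212873327, minus strand) and MAFF on chromosome 22 (38596774 to 38612518, plus strand).

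The make-up of the families moved with the genes above. JUN made up 64.0% to 74.1% of the summed RPKM of the JUN family. JUNB made up 19.6% in the EGR1 library, where it exceeded JUND at 16.4%, and 6.64% to 9.35% in the other 8 libraries, where JUND held 19% to 25.5%. In the FOS family FOS led in 8 libraries, with 43.6% to 61.9%. In the E2F4 library FOSL2 led with 48.4% and FOS had 40.2%, while FOSL2 had 19.3% to 27.5% elsewhere. FOSL1 made up 21.5% of the FOS family in the NKX2-8 library and 4.57% to 11.5% in the other libraries. FOSB was at its largest share in the NRF1 library, with 17.4%. The summed RPKM of the JUN family was 34.2 times that of the FOS family in the control, 21.7 times in the HOXA11 library and 37.8 times in the EGR1 library, the lowest and the highest of the 9.

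**Figure D4:**
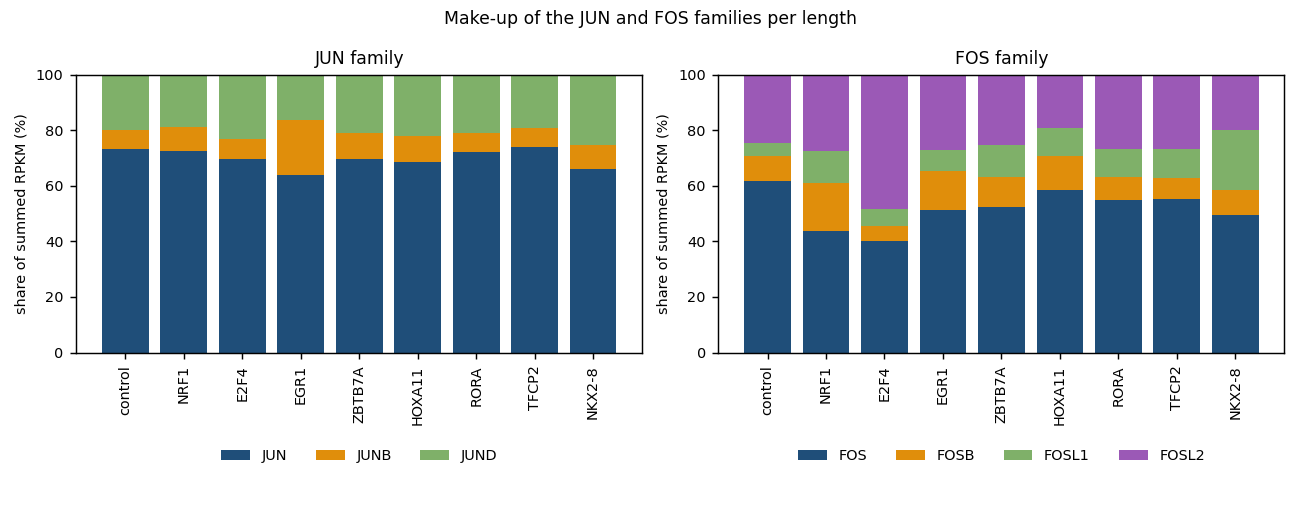
Share of each gene in the summed RPKM of the JUN family (left) and the FOS family (right), in percent, in the 9 libraries. JUNB takes 19.6% of the JUN family in the EGR1 library and FOSL2 48.4% of the FOS family in the E2F4 library.

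The 4 CLB_TF libraries were then compared with the 4 control TF libraries, the one comparison with several libraries a side. Each TF stands in as a replicate, so the spread is that between TFs of a class. None of the 10 genes differed by edgeR's quasi-likelihood test with Benjamini-Hochberg adjustment over 15012 genes, of which 6 (0.04%) did. At an unadjusted p under 0.05 by edgeR's test there were 0 of 10, against 10.2% of all genes. By DESeq2's adjusted p there were also 0 of 10, where 108 of 14986 genes were called higher and 34 lower. The classes overlapped in CPM for all 10 genes, while 6.97% of genes had classes that did not overlap.

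JUNB averaged 82.4 ± 62.7 CPM (SD, n = 4) in the CLB_TF and 53.3 ± 5.39 CPM (SD, n = 4) in the control TF libraries. Its log2 fold change was 0.64 (SE 0.36, edgeR adjusted p = 0.568), and -0.05 without the EGR1 library (edgeR adjusted p = 0.886). FOSL2 had 30.4 ± 14.1 CPM against 22.3 ± 4.45 CPM (SD, n = 4 each), a log2 fold change of 0.46 (SE 0.25, edgeR adjusted p = 0.556) that was 0.09 without the E2F4 library. FOSL1 had the smallest adjusted p of the 10, with 2.17 ± 0.468 CPM against 3.20 ± 0.940 CPM (SD, n = 4 each) and a log2 fold change of -0.55 (SE 0.25, edgeR adjusted p = 0.493) that was -0.33 without the NKX2-8 library. FOS stood at 19.4 ± 1.87 CPM against 24.0 ± 5.75 CPM, with a log2 fold change of -0.29 (SE 0.15, edgeR adjusted p = 0.520) that was -0.13 without the HOXA11 library. The other 6 genes had log2 fold changes of -0.13 to 0.23. The highest of these, that of FOSB, ranged from 0.019 without the NRF1 library to 0.54 without the HOXA11 library. JUN, at -0.03, turned to between 0.02 and 0.04 without the NRF1, ZBTB7A, RORA or TFCP2 library and to 0.01 when counts were scaled by library totals. BATF3, at 0.06, turned to -0.01 without the NRF1 library. With no filter on low counts JUNB (edgeR adjusted p = 6.12e-14) and FOSL2 (edgeR adjusted p = 0.00078) passed the threshold, in a fit of 35115 genes that called 722 higher and 73 lower. The SE in that fit was 0.076 for JUNB and 0.100 for FOSL2, far below those with the filter, though the libraries were the same. These 2 p-values therefore do not reflect the spread between TFs seen above.

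Other genes of the pathway were counted by the same fold and minimum, but only where their mean over the 9 libraries was at least 1 CPM. The shares of all genes set beside them also include genes below that mean. Of 41 further bZIP genes 38 were measured, with a mean of at least 1 CPM, and none fell. Of them 2 rose in the NRF1 library (8.72% of all genes), 1 in the E2F4 (3.95%), 3 in the EGR1 (2.76%), 1 in the ZBTB7A (2.15%), 1 in the RORA (0.707%) and 1 in the NKX2-8 library (3.12%). The 3 in the EGR1 library included CEBPD, a C/EBP factor of the acute phase response, with 106 counts against 37 in the control and a ratio of 3.29 (2.24 to 4.92), and NRL, a retinal MAF protein with 30 against 12. NRL was the gene that rose most often, in 5 libraries, and its count was lowest in the control library. Its ratios ran from 2.01 in the ZBTB7A to 3.25 in the NKX2-8 library. In the ZBTB7A (0.927 to 4.55) and RORA (0.965 to 4.52) libraries the interval included 1. The median log2 fold change of this list was -0.04 to 0.07 over the TF libraries, against -0.04 to 0.00 over all genes.

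Of 29 kinases and TFs that act upstream of AP-1, all were measured and 1 changed in the 8 TF libraries. It rose in the E2F4 library, where 3.95% of all genes rose. MAP3K5, a kinase above JNK and p38, had 424 counts in the E2F4 library and 166 in the control, a ratio of 2.63 (2.19 to 3.17). The gene with the next largest change there, the RSK kinase RPS6KA1, had a ratio of 1.25 (1.15 to 1.37).

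Among 22 other immediate early genes, all measured, 2 rose in the EGR1 library (2.76% of all genes), 1 fell in the NKX2-8 library (1.19% of all genes) and none changed in the other 6. GADD45B, a stress sensor of the p38 and JNK pathway, had 1925 counts with EGR1 against 438, a ratio of 5.05 (4.55 to 5.61). ZFP36, which destabilises AU-rich mRNAs, had 143 against 82, a ratio of 2.0 (1.52 to 2.66). The TFCP2 library was close, with 135 counts of ZFP36. CCN2, a matrix protein, had 8 counts in the NKX2-8 library against 30. The list's median log2 fold change ran from -0.14 in the NRF1 to 0.18 in the EGR1 library, where those of all genes were -0.04 and -0.03, and it was 0.00 in the class comparison.

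Of 35 known AP-1 targets 19 were measured. They rose in 4 cases in the NRF1 library (8.72% of all genes) and in 3 in the E2F4 library (3.95%). In the NKX2-8 library 1 rose (3.12%) and 2 fell (1.19%). In the EGR1, ZBTB7A, HOXA11, RORA and TFCP2 libraries 0 changed, where 0.707% to 2.76% of all genes rose and 0.306% to 0.579% fell. SPHK1, the sphingosine kinase, had 939 counts in the NRF1 and 1692 in the E2F4 library against 379 in the control, ratios of 2.87 (2.55 to 3.25) and 4.60 (4.11 to 5.15). HBEGF, a ligand of the EGF receptor, had 143 counts in the NRF1 library against 69, a ratio of 2.40 (1.79 to 3.25). PTGS2, the inducible cyclooxygenase, fell in the NKX2-8 library, with 17 counts against 53. The list's median log2 fold change against the control was -0.17 in the NKX2-8 library and -0.03 to 0.05 in the other 7. In the class comparison, which tested 21 of these targets, it was 0.19 against 0.00 for all genes, with 0 genes called.

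ATF4 targets, which share stress signals with ATF3, did not reach 2-fold in any library (0 of 19). Of all genes, 0.707% to 8.72% rose and 0.306% to 1.19% fell, depending on the TF library. TRIB3, a pseudokinase induced by ATF4, had the largest change of the list in the NRF1 library, with a ratio of 1.39 (1.26 to 1.52). Of 14 targets of NRF2 and the small MAF proteins, OSGIN1, an oxidative stress gene, alone changed. It had 69 counts in the NKX2-8 library against 16 in the control, a ratio of 5.26 (3.02 to 9.72), where 3.12% of all genes rose. OSGIN1 also rose in the NRF1 (8.72% of all genes), EGR1 (2.76%) and ZBTB7A (2.15%) libraries. NQO1, the quinone reductase, had 44 counts against 96 in the NRF1 library, a ratio of 0.532 (0.363 to 0.767) that did not reach 2-fold. The quasi-likelihood test called 0 genes of these lists.

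For the 4 genes that differed at least 2-fold between libraries, the genes with the most like pattern were sought among 11189 genes with a mean of at least 5 CPM. Likeness was the root mean square difference of log2 CPM, each gene centred on its own mean over the 9 libraries, which share their libraries and depth. Since the genes were chosen by this measure, a peak in the same library follows from the choice. Among the nearest to JUNB were GADD45B (0.20) and TIMP3 (0.22), an inhibitor of matrix proteases with 1829 counts with EGR1 and 920 in the control. Nearest to FOSL2 were DAGLA (0.14), an endocannabinoid-producing lipase, ADCY1 (0.15), an adenylyl cyclase, and PER2 (0.16), a repressor of the circadian clock. All 3 were highest in the E2F4 library, with 383, 1915 and 246 counts against 158, 904 and 109 in the control.

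The patterns of FOSB and FOSL1 had less close neighbours. ARMC5 (0.25), SLIT1 (0.29), an axon guidance ligand, and EME2 (0.29), a subunit of a DNA endonuclease, were nearest to FOSB and highest in the NRF1 library. AEN (0.31), a nuclease induced by p53, ADAMTS10 (0.33), a metalloprotease, and KCNH3 (0.33), a potassium channel, were nearest to FOSL1 and highest in the NKX2-8 library, with 2466, 180 and 220 counts against 1345, 97 and 109 in the control.

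**Figure D5:**
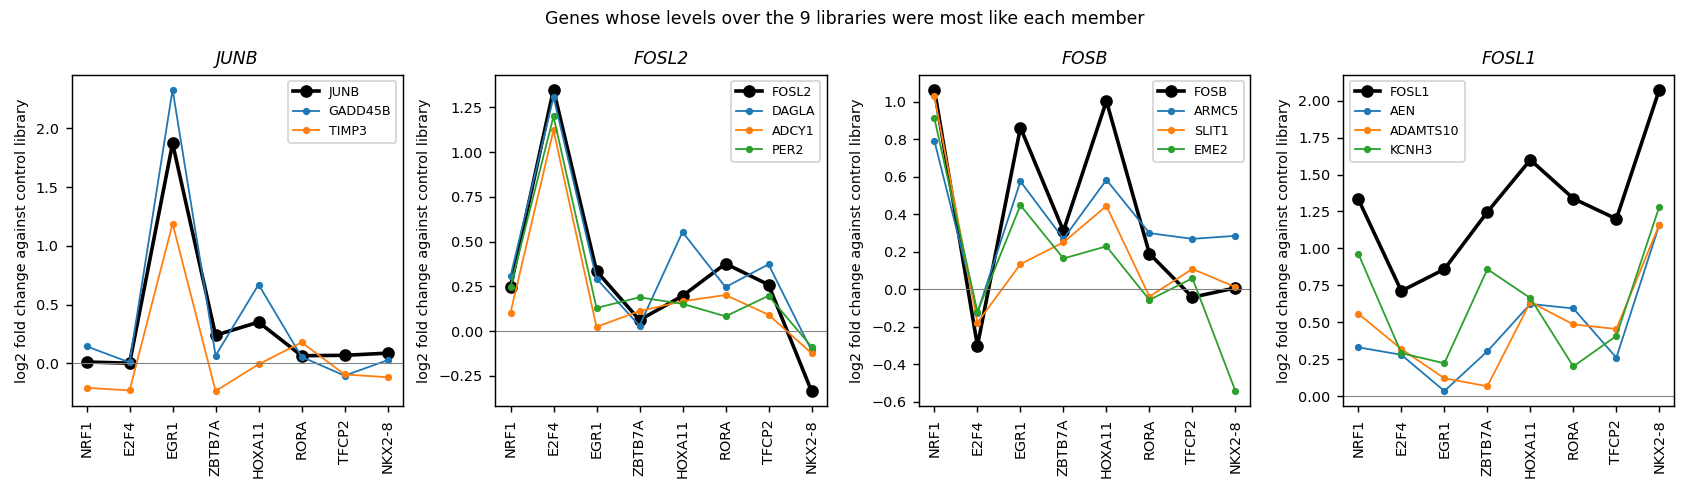
Log2 fold change against the control library (vertical axes) in the 8 TF libraries for JUNB, FOSL2, FOSB and FOSL1 (black) and genes most like each (colours; 2 for JUNB and 3 for the others), 1 point per library. The coloured genes were chosen for this likeness, so a shared peak, as in the EGR1 library for JUNB and the E2F4 library for FOSL2, follows from the choice.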

How the data were processed

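Per the labels and the methods of the study, 293T RNA was prepared with a directional kit and sequenced as read pairs. The labels name TRIzol for RNA extraction and the methods a miRNeasy kit. Read quality was checked by the authors in FastQC 0.11.2. STAR 2.6.0c placed the reads on GRCh37, and featureCounts 1.6.3 counted those with a unique position. The deposited table holds these raw counts for 57163 genes. Whether strand was used in counting is not stated in the sources.

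Samples were grouped by their labels, 1 library per condition, and the TF classes came from the paper. Gene IDs were matched to GENCODE v44lift37 with versions removed (35408 of 36202 Ensembl IDs had a symbol). All analyses used the whole table and print only the rows needed. CPM used TMM factors from edgeR 4.0.16 under R 4.3.3. Rise and fall mean a fold of 2 or more against the control, with 1 CPM or more on the higher side. Each ratio carries a 95% exact conditional binomial interval, which covers counting error only, and reads without molecular identifiers are not independent molecules. Log2 fold changes against the control library used a prior count of 2. Those of the class comparison came from edgeR's quasi-likelihood fit. Their SE is the absolute log2 fold change divided by the square root of the F statistic of the test. With totals of 14177970 to 18915400 counts, FOSL1, with 18 to 68 counts, has the widest intervals. No p-value is given for 1 library against 1.

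The CLB_TF and control TF classes (4 libraries each) were compared by edgeR's quasi-likelihood test (filterByExpr, TMM, Benjamini-Hochberg at 0.05). The test was also run on simulated data with a fixed dispersion, which does not carry the spread between TFs of a class. Nothing in the sources says whether libraries came from separate cultures on separate days, so p-values of the filtered test measure the spread between these libraries. Alternatives were DESeq2 1.42.0, other scalings, references, filters and folds, and leaving out each library. Named genes were all 10 members and the 3 genes most like each member that varied 2-fold. Of each other list, the 2 genes with the largest change in the library where most of it changed were named. Libraries tied for the ATF4 list, where no gene changed, and for the NRF2 list. The NRF1 library was then used because it came first in order. NRL, CCN2 and PTGS2 are named to complete a count and were chosen after their values were seen. Promoters were the 500 bases upstream of the canonical start in the GRCh37 reference. Some genes and sequences that these rules select are not reported here. The members and lists were chosen with earlier results of these data known.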

Additional observations from a re-analysis of the deposited data

Results flagged for a closer look

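Single libraries that stand apart within a class were sought in 20 groups of 4 libraries (10 genes in 2 classes), and 2 groups, both of JUNB, were past the limit. Among the 4 CLB_TF libraries the EGR1 library held 176 CPM and the other 3 held 48.1 to 56.8 CPM, so that on the log2 scale its gap to the nearest was 0.873 of the whole range. Among the 4 control TF libraries the HOXA11 library held 61.4 CPM against 50.3 to 51.1 CPM, a gap of 0.923 of the range. Both pass Dixon's critical value of 0.829 for 4 values. Chance flags about 1 in 20 such groups.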

How the results depend on the processing

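The rises of JUNB in the EGR1 library and of FOSL2 in the E2F4 library kept their call under every scaling, reference, minimum and fold tried. With the 7 other TF libraries averaged as the reference, and with the remaining control TFs averaged, the NRF1, ZBTB7A, HOXA11, RORA, TFCP2 and NKX2-8 libraries had 0 changed members each. The FOSL1 ratio then turned to 0.985 and 0.829 in the NRF1, 0.917 and 0.778 in the ZBTB7A, 0.989 and 0.787 in the RORA and 0.883 and 0.695 in the TFCP2 library, since the control library has the fewest FOSL1 counts. At a minimum of 5 CPM the NRF1 and HOXA11 libraries had 1 (FOSB) and the ZBTB7A, RORA, TFCP2 and NKX2-8 libraries 0, since FOSL1 drops out. At a fold of 1.5 the E2F4 library had 2 and the EGR1 library 3. DESeq2 size factors and a prior count of 5 left all 80 ratios within their intervals, and library totals moved 7 of 80 beyond them. The 2 changes of reference moved more, with 42 moved and 4 reversed against the 7 other TF libraries and 34 moved and 4 reversed against the control TFs. In the class comparison 0 members were called under DESeq2, other scalings, the control library added, and each library left out, and 2 with no filter (JUNB at 0.63 and FOSL2 at 0.45); the cause was not tested. With 1 library left out, the log2 fold change of JUNB ranged from -0.050 (without EGR1) to 0.83, that of BATF3 from -0.0097 (without NRF1) to 0.13, and that of JUN from -0.14 to 0.045, above 0 without NRF1, ZBTB7A, RORA or TFCP2. With library totals JUN stood at 0.012. Over all genes, 6 rose and 0 fell by edgeR's test as reported, 108 and 34 by DESeq2, 53 and 2 with the control library added, 1 and 0 with library totals, 722 and 73 with no filter, and 0 to 59 rose without 1 library. No paired analysis was possible because the labels carry no replicate numbers and each condition has 1 library.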
